A study of Mus musculus with 8 samples.

Results

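E-proteins and Id proteins are the common partner and the common inhibitor of tissue-specific basic helix-loop-helix (bHLH) transcription factors, and the 7 mouse genes that encode them are described here: Tcf3, Tcf12 and Tcf4 for the E-proteins and Id1, Id2, Id3 and Id4 for the inhibitors. They were found by gene symbol among the 37558 Ensembl genes of the count table, 1 row for each symbol, and all 7 reached 1 CPM (counts scaled to library size) in at least 1 library, as did 15547 genes in all. Tcf3 here is ENSMUSG00000020167 (E2A, which gives E12 and E47), Tcf12 is ENSMUSG00000032228 (HEB) and Tcf4 is ENSMUSG00000053477 (E2-2). The Tcf/Lef genes that share the older names Tcf3 and Tcf4 are not meant.

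RNA was measured in 8 cultures of P19, a mouse embryonal carcinoma line, each infected with lentivirus in the presence of polybrene and later moved to Neurobasal medium with B27. The virus encoded MyoD, NeuroD2, GFP as the control, or MD(ND2bHLH), called the chimera here, which is MyoD with the NeuroD2 bHLH domain. Chimera mutants named WC and WCS, whose changes no label spells out, made up the remaining groups. Separate cultures given the chimera or WCS were infected at a multiplicity of infection (MOI) of 100. For the other 6 cultures no source used here gives the MOI, and none gives the vector's promoter or the time of harvest. Each of the 8 groups was 1 library of oligo-dT-selected RNA, so pairs of groups were compared without a test, with intervals that cover counting error only. The exception is a joint fit of the chimera and WCS libraries with and without MOI 100, described with its results.

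MyoD and NeuroD2 bind DNA as dimers with an E-protein, at the E-box sequence CANNTG. Id proteins have the helix-loop-helix that makes dimers but lack the basic region that touches DNA, so an E-protein held by an Id protein is not available to MyoD or NeuroD2. Id genes are known targets of bone morphogenetic protein (BMP) signalling and are known to hold back both muscle and neuron differentiation.

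Myod1 lay between 77.3 and 857 CPM in the 6 libraries given MyoD or a chimera, above its 0.681 in GFP and 0.804 in NeuroD2, as the labels have it, and Neurod2 had 0 counts in MyoD against 179.8 CPM in NeuroD2. Library totals ran from 26410500 to 43984066 counts, and the members' counts from 203 (Id2 in MyoD) to 9783 (Tcf3 in GFP). Of 6 pluripotency markers, summed CPM was highest in GFP at 2650 and lowest in the chimera at MOI 100 at 389. Zfp42 was near 0 in every library, GFP included, at 0.038 CPM or less. Sox2 did not follow the sum, at 124 CPM in GFP, 95.7 in MyoD, 108 in the chimera at MOI 100 and 126 to 205 in the others. Summed CPM of 7 skeletal muscle markers was 10172 in MyoD, 1018 in the chimera, 1649 in the chimera at MOI 100 and 18.1 to 69.9 in the other 5 libraries, where Myog had 0 counts in WCS. The 7 neuron markers summed to 228 in MyoD and 270.3 in GFP, 719 in the chimera and 1675 to 4381 in the other 5. Markers of glia and neural crest, fibroblasts, and endothelium and blood summed to at most 10.8, 55.5 and 2.17 CPM.

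Upstream sequences of 5 members were found in the RefSeq promoter table (build GRCm38.p6, another build than the mm9 of the counts), and windows of the 250 bases before the start were read. They are shown because the study's factors bind the E-box and because Id2 and Id4 had the widest ranges among the members. Capitals mark CANNTG, which reads as CANNTG on both strands, and GGCGCC, a GC-rich palindrome related to elements bound by BMP-activated Smad proteins. The Id2 entry is limited to the 89 bases outside annotated UTRs, at chr12:25096254-25096342 on the minus strand. The Id4 entry is chr13:48260866-48261115 on the plus strand. Tcf12 has 3 windows, and its entry, from 1 of them, is chr9:72112042-72112069. The Tcf3 entry is chr10:80433672-80433701, and both are on the minus strand.
Id2: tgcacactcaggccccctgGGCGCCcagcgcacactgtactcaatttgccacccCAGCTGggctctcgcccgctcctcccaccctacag
Id4: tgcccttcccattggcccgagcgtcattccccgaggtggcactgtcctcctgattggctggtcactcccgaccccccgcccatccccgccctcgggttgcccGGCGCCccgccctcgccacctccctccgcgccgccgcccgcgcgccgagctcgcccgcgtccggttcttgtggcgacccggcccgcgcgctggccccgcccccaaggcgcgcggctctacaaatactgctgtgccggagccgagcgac
Tcf12: agatgctgccCAGCTGcgtccccgtcgc
Tcf3: agtgggcgtggtCACTTGggggcgtggctt

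The Id2 window held 1 E-box, CAGCTG, at position -196 from the start, and 1 GGCGCC, at -231. The Tcf12 entry has CAGCTG at -240. The Id4 window held GGCGCC at -148 and no CANNTG, and the Id3 window held neither. Of 32851 promoters of the same length, 66.2% held CANNTG, 13% held CAGCTG, a form of CANNTG, and 9.59% held GGCGCC. Of the same promoters 14.4% held CAGATG, another form of CANNTG, or its reverse complement CATCTG, and no window of a member did. A match is a run of letters, not a bound site, and a window without one says nothing of sites elsewhere.

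The E-proteins had narrower ranges than the Id genes, but only Tcf3 varied less than the median gene. Tcf3 stood at 238 CPM in GFP, 243 in MyoD, 229 in the chimera, 197 in the chimera at MOI 100, 282 in WC, 290.2 in WCS, 172 in WCS at MOI 100 and 234 in NeuroD2. Its highest library was 1.69 times its lowest, a wider range than in only 36.8% of 12817 genes with at least 5 CPM in 1 library, whose median ratio was 1.97 after adding 0.5 CPM. GFP, MyoD, NeuroD2 and the chimera lay next to each other with overlapping counting intervals between neighbours, WC and WCS lay above them, and both MOI 100 libraries lay below.

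Tcf12 stood at 122 CPM in GFP, 276 in MyoD, 213 in the chimera, 213 in the chimera at MOI 100, 181 in WC, 195 in WCS, 176 in WCS at MOI 100 and 190.4 in NeuroD2. Tcf4 stood at 49.8 CPM in GFP, 163 in MyoD, 103 in the chimera, 129 in the chimera at MOI 100, 96.1 in WC, 99.2 in WCS, 101 in WCS at MOI 100 and 117 in NeuroD2. Both were lowest in GFP and highest in MyoD, and every other library lay between with intervals clear of both ends. With 0.5 CPM added, the range of Tcf12 was wider than in 59.1% of the 12817 genes, and that of Tcf4 than in 74.6%. Across the 8 libraries Tcf12 and Tcf4 had r = 0.953 on log2(CPM + 0.5), while Tcf3 had r = 0.0195 with Tcf12 and -0.12 with Tcf4. These are descriptions over 8 points from the same libraries.

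Id genes spanned wider ranges, though Id3 was close to Tcf4 in this. Id1 stood at 9.24 CPM in GFP, 20.0 in MyoD, 12.8 in the chimera, 21.1 in the chimera at MOI 100, 16.0 in WC, 20.96 in WCS, 28.9 in WCS at MOI 100 and 48.7 in NeuroD2. Id3 stood at 7.69 CPM in GFP, 16.0 in MyoD, 12.6 in the chimera, 10.0 in the chimera at MOI 100, 11.4 in WC, 15.1 in WCS, 17.0 in WCS at MOI 100 and 28.1 in NeuroD2. Both genes were lowest in GFP and highest in NeuroD2, apart from every other library by more than counting error at the top, with r = 0.895 between them. In between, 5 neighbouring pairs of Id3 had overlapping intervals, so its middle order is not resolved by depth.

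Id2 stood at 15.0 CPM in GFP, 7.79 in MyoD, 31.8 in the chimera, 24.95 in the chimera at MOI 100, 52.6 in WC, 63.0 in WCS, 59.4 in WCS at MOI 100 and 113 in NeuroD2. MyoD was the lowest library and the only one below GFP, and NeuroD2 was the highest, 14.5 times MyoD. With 0.5 CPM added, that range was wider than in 94.3% of the 12817 genes. WCS with and without the MOI label was the only neighbouring pair whose counting intervals overlapped.

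Id4 had another order. It stood at 6.76 CPM in GFP, 17.9 in MyoD, 52.7 in the chimera, 22.1 in the chimera at MOI 100, 62.8 in WC, 77.3 in WCS, 65.9 in WCS at MOI 100 and 48.1 in NeuroD2. WCS, WC and WCS at MOI 100 held the 3 highest levels, and NeuroD2 stood below them beside the chimera. The range from GFP to WCS was 11.4-fold, wider than in 92.6% of the 12817 genes once 0.5 CPM was added. Exons of Id4 overlap 2 genes on the opposite strand in GENCODE M21 that have no row in the count table, and no source used here gives the strand setting of the counting, so reads of Id4 and of these genes cannot be told apart.

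**Figure D1:**
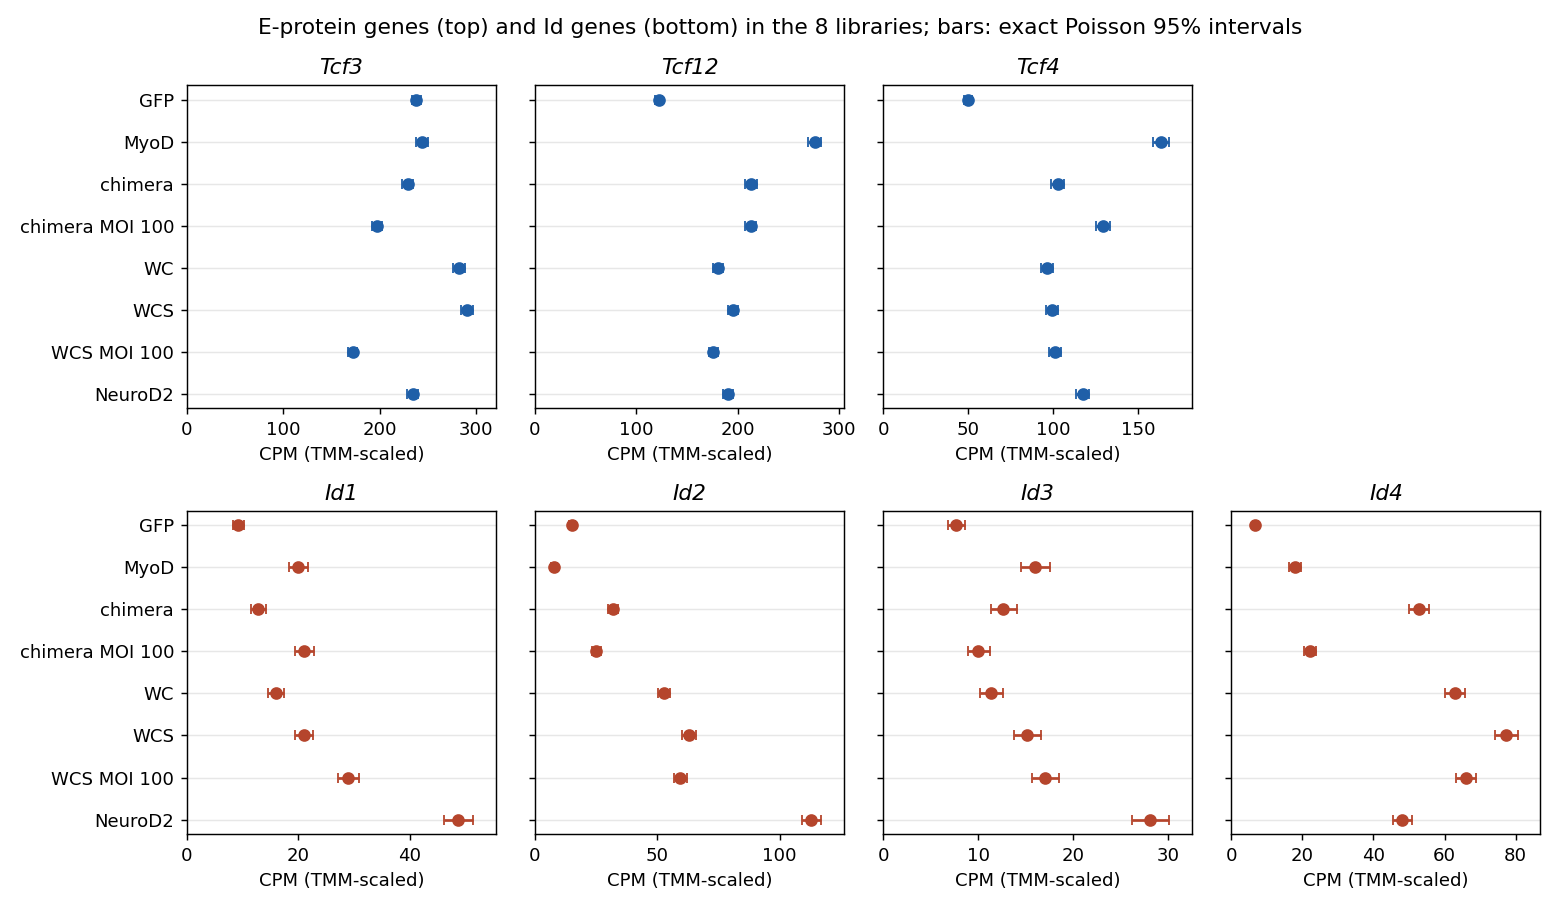
Level of each gene in CPM after TMM scaling (x axis, linear from 0) in each of the 8 libraries (y axis), with E-proteins in the top row, Id genes in the bottom row, and bars for exact Poisson 95% intervals on 1 count each. Id2 is lowest in MyoD at 7.79 and highest in NeuroD2 at 113, Id4 is highest in WCS at 77.3, and Tcf3 spans only 172 to 290.2.

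Set against GFP, 5 of the 7 genes were at least 2-fold higher in MyoD, counting only genes whose higher level was 5 CPM or more and adding 0.5 CPM to both. The same rule was met by 7.06% of the 15547 measured genes in the higher direction and by 5.2% in the lower direction, which no member met. Only 12817 of the measured genes reached 5 CPM in any library, as all members did, and the rest could not meet the rule. Shares of measured genes, here and below, are therefore lower than shares of the genes that could meet it. The count of 5 members fell to 3 with a pseudocount of 2 CPM and to 4 with DESeq2 size factors. Tcf4 was 3.28-fold higher (Clopper-Pearson 95% interval 3.11 to 3.45), Id4 2.64-fold (2.27 to 3.08), Tcf12 2.26-fold (2.18 to 2.34), Id1 2.16-fold (1.89 to 2.48) and Id3 2.08-fold (1.79 to 2.41). Id2 went the other way, 1.93-fold lower (1.64 to 2.27), just short of the rule. The members' median log2 ratio was 1.07 against -0.03 over all measured genes.

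In NeuroD2 all 4 Id genes and Tcf4 were at least 2-fold higher than in GFP, 5 of 7 members against 11.5% of measured genes, and 0 were lower against 6.88%. Id2 was 7.53-fold higher (6.91 to 8.22), Id4 7.12-fold (6.25 to 8.12), Id1 5.27-fold (4.7 to 5.92) and Id3 3.65-fold (3.2 to 4.18). Tcf4 was 2.35-fold higher (2.23 to 2.49) and Tcf12 1.56-fold (1.5 to 1.62). Tcf3 was level with GFP at a ratio of 0.983 (0.953 to 1.01), and its direction turned with scaling to total counts, at 1.09. In bulk RNA a change in the share of cells that express a gene and a change in RNA per cell cannot be told apart. All 7 neuron markers met the rule in NeuroD2 over GFP, with sums of 3010 and 270.3 CPM, and their part in the Id levels was not tested.

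The chimera and its mutants were also read against the same GFP library, so these comparisons share their control with those above and with each other. By the 2-fold rule 3 members were higher in the chimera (5.95% of measured genes), 3 in the chimera at MOI 100 (12.9%), 2 in WC (7.5%), 3 in WCS (7.53%) and 5 in WCS at MOI 100 (14%), and none was lower in any, where 4.14%, 9.37%, 3.69%, 4.39% and 11.9% of measured genes were. Scaling to total counts raised the 3 members of WCS to 5, and a pseudocount of 2 CPM lowered the 5 of WCS at MOI 100 to 3. Id4 met the rule in all 5, at 7.8-fold in the chimera (6.85 to 8.9), 3.28-fold in the chimera at MOI 100 (2.84 to 3.78), 9.29-fold in WC (8.19 to 10.6), 11.4-fold in WCS (10.1 to 13.0) and 9.75-fold in WCS at MOI 100 (8.6 to 11.1). Id2 was 2.12-fold higher in the chimera (1.91 to 2.36) and 1.66-fold at MOI 100 (1.49 to 1.85), against 3.51-fold in WC, 4.2-fold in WCS and 3.96-fold in WCS at MOI 100. Tcf4 lay close to the threshold, from 1.93-fold in WC and 1.99-fold in WCS to 2.59-fold in the chimera at MOI 100.

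**Figure D2:**
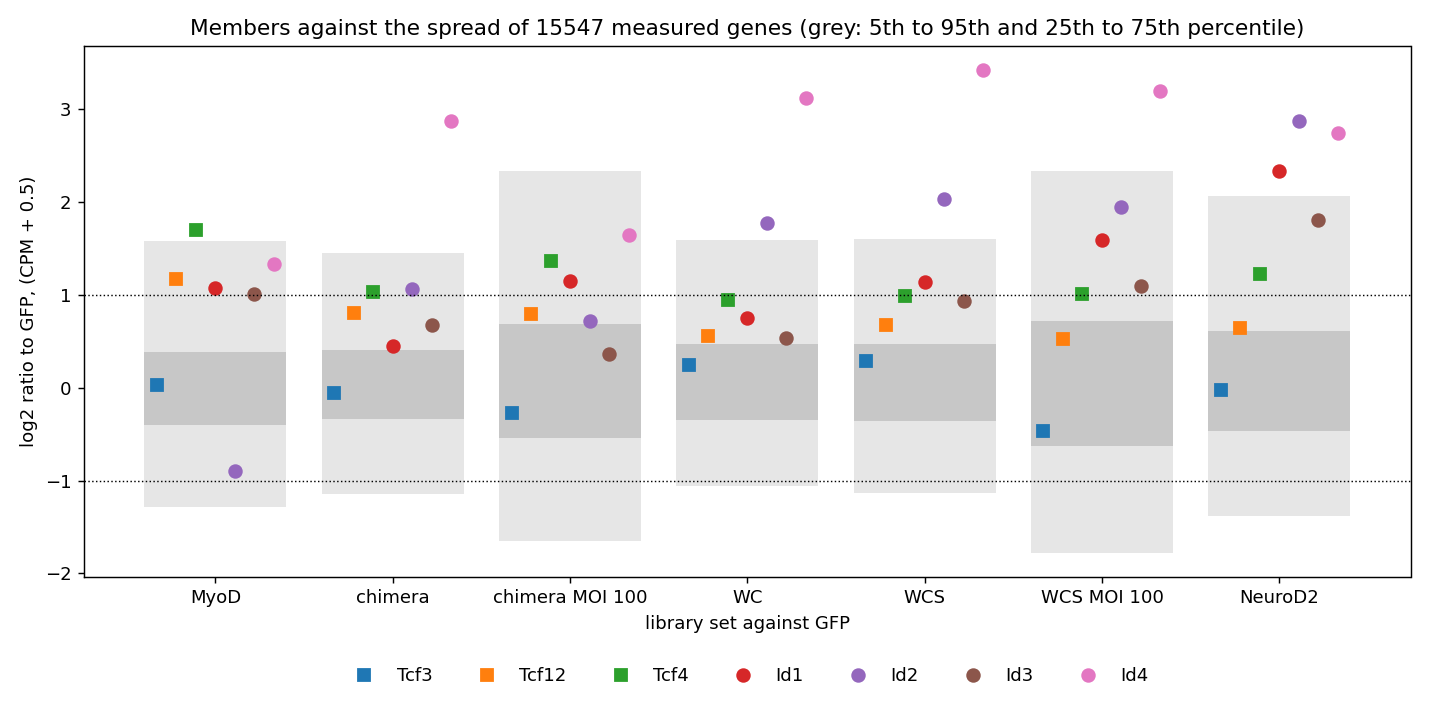
Log2 ratio to GFP on CPM + 0.5 (y axis) of the 7 members (squares for E-proteins, circles for Id genes) in the other 7 libraries (x axis), over grey bands for the spread of the 15547 measured genes and dotted lines at a 2-fold difference. Id4 lies above the 95th percentile in the chimera, WC, WCS, WCS at MOI 100 and NeuroD2, Id2 lies below GFP only in MyoD, and Tcf3 stays within the middle band in every library.

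Set directly against NeuroD2, MyoD held less of every Id gene and somewhat more Tcf12 and Tcf4. By the 2-fold rule 3 of 7 members were lower in MyoD (9.67% of measured genes) and 0 were higher (6.61%). Id2 was 14.5-fold lower (12.6 to 16.8), Id4 2.69-fold (2.42 to 3.0), Id1 2.43-fold (2.2 to 2.7) and Id3 1.76-fold (1.56 to 1.98). Tcf12 was 1.45-fold higher (1.4 to 1.5) and Tcf4 1.39-fold (1.33 to 1.46).

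The chimera without an MOI label fell on different sides of its parents for different Id genes. Against MyoD, 2 members were higher (4.37% of measured genes) and 0 lower (4.79%), Id2 at 4.08-fold (3.5 to 4.78) and Id4 at 2.95-fold (2.66 to 3.29), while Id1 was 1.56-fold lower (1.36 to 1.8). Against NeuroD2, 3 members were lower (5.47%) and 0 higher (2.21%), Id1 at 3.8-fold (3.37 to 4.29), Id2 at 3.55-fold (3.29 to 3.83) and Id3 at 2.23-fold (1.96 to 2.54). Id4 alone among the Id genes was close to NeuroD2, at a ratio of 1.1 (1.02 to 1.18). At MOI 100 the chimera stood elsewhere, with Id4 at 22.1 CPM against 48.1 in NeuroD2 and 17.9 in MyoD. Id1 was there at 21.1 CPM against 20.0 in MyoD. Myod1, whose row takes construct reads, stood at 116 CPM in the chimera, 555 at MOI 100 and 296 in MyoD. Tcf3, Tcf12 and Tcf4 were within 1.59-fold of both parents.

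WCS held more of all 4 Id genes than the chimera at both MOI labels. Without an MOI label 0 members met the 2-fold rule (2.93% of measured genes higher, 2.09% lower), with Id2 just under it at 1.98-fold (1.82 to 2.15), Id1 at 1.64-fold (1.43 to 1.87), Id4 at 1.47-fold (1.37 to 1.57) and Id3 at 1.2-fold (1.03 to 1.38). At MOI 100, 2 members met it as higher (3.23%) and 0 as lower (3.32%), Id4 at 2.98-fold (2.72 to 3.26) and Id2 at 2.38-fold (2.18 to 2.6), with Id3 at 1.7-fold (1.47 to 1.96) and Id1 at 1.37-fold (1.23 to 1.52). Tcf12 was lower in WCS at both labels, 1.09-fold and 1.21-fold. Tcf3 turned from 1.27-fold higher without the label to 1.14-fold lower at MOI 100.

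These 4 libraries cross construct with MOI label and were fitted together, with 1 residual degree of freedom. The quasi-likelihood test of edgeR, with p adjusted by Benjamini-Hochberg over 16079 genes, called 11.3% of them different between WCS and the chimera at an adjusted p under 0.05, 5.84% higher and 5.49% lower in WCS. Of the 7 members 2 passed and both rose in WCS. Id2 rose by 1.12 on the log2 scale (edgeR adjusted p = 0.0032) and Id4 by 1.06 (edgeR adjusted p = 0.033), each higher in WCS in 2 of 2 pairs. Id1 stood at 0.58 (edgeR adjusted p = 0.076) and Id3 at 0.51 (edgeR adjusted p = 0.20), and neither passed. Tcf3, Tcf12 and Tcf4 stood at 0.08, -0.20 and -0.20, with edgeR adjusted p of 0.37 or more. With no second culture of any condition, these p-values do not measure the spread between cultures. The spread behind them is how far differences between constructs varied with the MOI label. The method draws each gene's spread toward that of the other genes, so a p-value does not rest on that gene's own agreement alone. Without the MOI term in the fit no gene passed, so both calls rest on that term. All 7 muscle markers fell in WCS and 5 of 7 neuron markers rose in the same fit. Myod1, whose row takes reads of the delivered construct, stood at 116 CPM in the chimera against 77.3 in WCS, and at 555 against 857 at MOI 100. The part of these genes in the Id values was not tested.

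WC differed little from WCS over all genes, and each Id gene was lower in it. Only 0.0965% of measured genes were at least 2-fold higher in WC than in WCS and 0.0129% lower, and no member was among either. Id3 stood at 0.753 of its WCS level (0.653 to 0.868), Id1 at 0.761 (0.675 to 0.858), Id4 at 0.813 (0.765 to 0.864) and Id2 at 0.835 (0.781 to 0.893). Between 1.55% and 4.56% of the measured genes had a lower log2 ratio than these 4 genes in this comparison, against 17.9% to 35.3% for the E-proteins. No second culture of either mutant was measured, so a difference of this size cannot be set against the spread between cultures. Against the chimera, 0 members met the 2-fold rule in WC (2.6% of measured genes higher, 1.63% lower), and Id2 was the farthest at 1.65-fold higher (1.52 to 1.8).

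**Figure D3:**
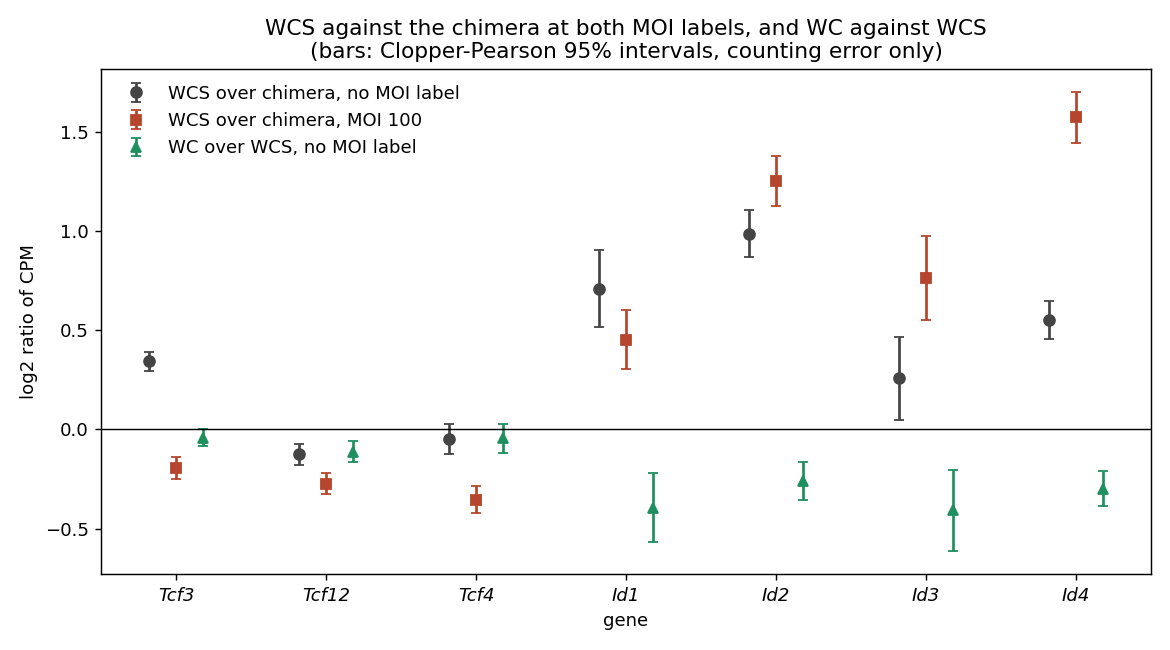
Log2 ratio of CPM (y axis) for each gene (x axis) in WCS over the chimera without an MOI label (circles) and at MOI 100 (squares), and in WC over WCS (triangles), with Clopper-Pearson 95% intervals for counting error. All 4 Id genes lie above 0 in WCS over the chimera at both labels and below 0 in WC over WCS, while Tcf3 lies above 0 at one label and below 0 at the other.

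The MOI 100 label went with less Id4 and Tcf3 and more Id1. Id4 was 2.38-fold lower in the chimera at MOI 100 than in the chimera (2.17 to 2.62), the only member past the 2-fold rule (2.14% of measured genes lower, 5.06% higher), and 1.17-fold lower in WCS (1.1 to 1.24), where no member met the rule (3.95% lower, 4.99% higher). Tcf3 was 1.16-fold lower in the chimera (1.12 to 1.21) and 1.69-fold lower in WCS (1.63 to 1.75). Id1 was 1.65-fold higher (1.44 to 1.89) and 1.38-fold higher (1.24 to 1.53). In the same 4-library fit 25.5% of genes passed for the MOI label, 13.4% higher and 12.2% lower at MOI 100. Id1 rose by 0.59 on the log2 scale (edgeR adjusted p = 0.043, higher in 2 of 2 pairs), a call that ended without the filter on low counts (edgeR adjusted p = 0.055) and with DESeq2 (adjusted p = 0.060). Id4 at -0.73 (edgeR adjusted p = 0.063) and Tcf3 at -0.49 (edgeR adjusted p = 0.052) did not pass, but both did with DESeq2 size factors in edgeR (adjusted p = 0.039 and 0.046). All 5 pluripotency markers tested fell and all 7 neuron markers rose with the MOI 100 label, and their part in these values was not tested.

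Levels of different genes were compared per kilobase of exon, with exon lengths from GENCODE M21 taken over all annotated transcripts of a gene. On that scale Tcf3 made up 71.8% (MyoD) to 85.9% (GFP) of the summed E-protein level, and Tcf12 11.5% to 21.1%. Tcf4 came to 2.65% to 7.1%, which the length understates, since its 62 annotated transcripts spread over 27.4 kb of exon. With the longest transcript as the length, Tcf4 came to 5.49% to 13.1%, Tcf12 to 18.3% to 30.1% and Tcf3 to 56.8% to 76.2%.

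The summed E-protein level, mostly Tcf3, was narrow, from 57.5 CPM per kb in WCS at MOI 100 to 88.0 in WCS. With the longest transcript as the length it ran from 97.9 in WCS at MOI 100 to 145 in MyoD. The summed Id level ran from 20.2 CPM per kb in GFP and 34.0 in MyoD to 75.9 in WCS at MOI 100 and 117 in NeuroD2. Id1 was the largest part in MyoD, 50.7% of the Id sum, where Id2 made up 9.4%. In NeuroD2 Id2 made up 39.8% and Id1 36%. Id4 was 27.7% to 30.5% of the sum in WC, WCS and the chimera, against 8.71% in GFP and 10.7% in NeuroD2.

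Id RNA per E-protein RNA, the ratio of these sums, was 0.294 in GFP (interval for counting error 0.278 to 0.311), 0.405 in MyoD (0.383 to 0.428), 0.593 in the chimera at MOI 100 (0.564 to 0.623), 0.605 in the chimera (0.579 to 0.633), 0.683 in WC (0.659 to 0.709), 0.823 in WCS (0.795 to 0.852), 1.32 in WCS at MOI 100 (1.27 to 1.37) and 1.56 in NeuroD2 (1.52 to 1.62). Both chimera libraries overlapped, and the other neighbours lay apart by more than counting error. Parts of the order rest on single genes. Without Tcf3, MyoD stood below GFP, and without Id2 or without Id4, WC stood below the chimera at MOI 100. Leaving out Tcf4, Tcf12, Id2 or Id4 put the chimera at MOI 100 above the chimera. NeuroD2 was 5.32 times GFP, and 4.92 times with the longest transcript as the length, which kept the same order of the 8 libraries. These are RNA levels and do not give the amount of either protein.

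**Figure D4:**
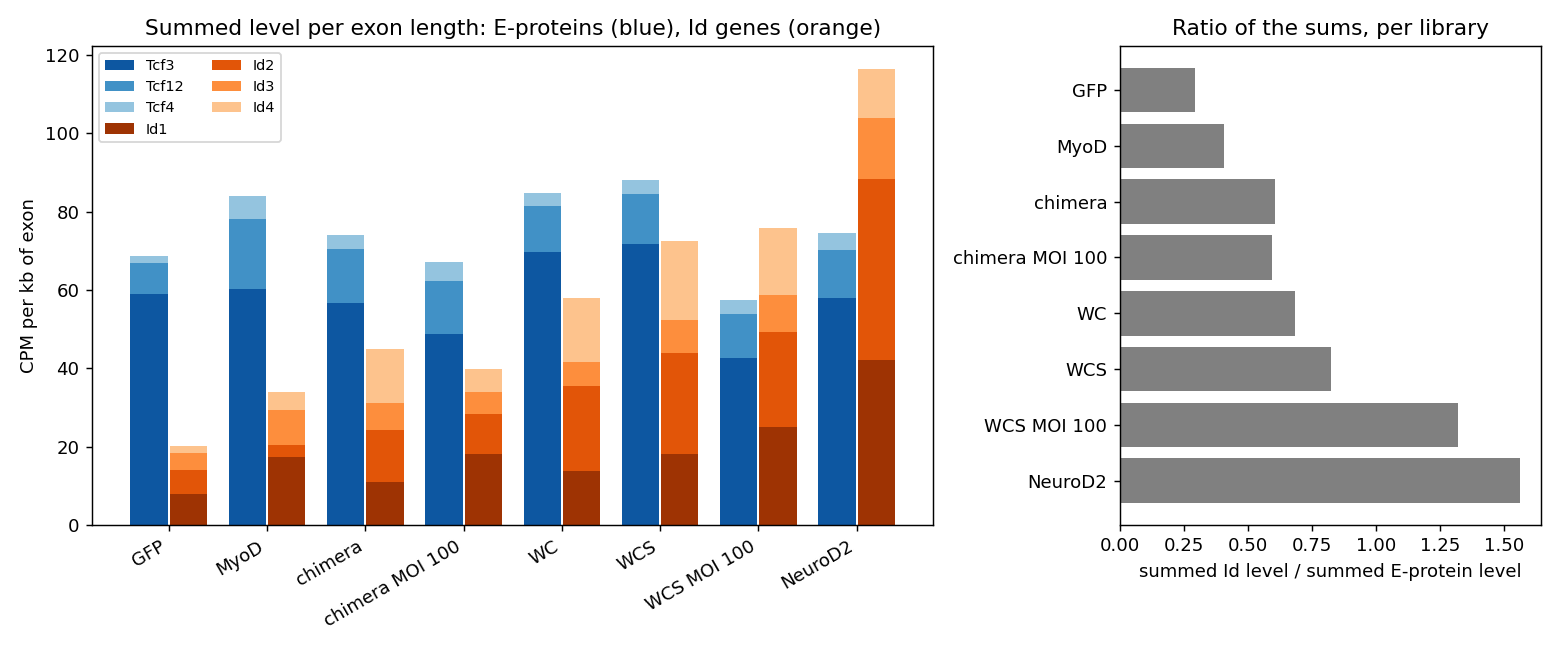
Left, CPM per kb of exon (y axis) stacked by gene for E-proteins (blue) and Id genes (orange) in the 8 libraries. Right, the ratio of the Id sum to the E-protein sum (x axis) per library, from 0.294 in GFP to 1.56 in NeuroD2. The blue bars stay between 57.5 and 88.0 while the orange bars run from 20.2 to 117.

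Other bHLH genes that pair with E-proteins were read from a list of 36, of which 22 were measured. By the 2-fold rule 2 were higher and 0 lower in MyoD over GFP (7.06% and 5.2% of measured genes), the muscle genes Myod1 and Myog, of which Myod1 takes reads of the delivered MyoD. In NeuroD2 over GFP 11 were higher and 0 lower (11.5% and 6.88% of measured genes), with a median log2 ratio of 1.49 against 0.03 over all measured genes, and Neurod1, Nhlh1 and Olig2 had the largest ratios once 0.5 CPM was added. Without it the ratio of Neurod4, at 32.6 CPM in NeuroD2 and 0.0486 in GFP, was larger than theirs. Nhlh2, at 25.1 CPM in NeuroD2 and 0 in GFP, has no defined ratio without it. Neurod2, whose row takes reads of the delivered NeuroD2, was among the 11, at 179.8 CPM in NeuroD2 against 2.5 CPM in GFP. It had 0 counts in MyoD, at least 7.24-fold lower than in GFP. In the 4-library fit 6 of 22 rose and 1 fell in WCS (5.84% and 5.49% of all genes tested). Myog, which encodes the muscle bHLH factor myogenin, was the one that fell. At MOI 100, Tal1, a blood and interneuron bHLH gene, stood at 1.91 CPM in WCS against 0.382 in the chimera, and Olig1, an oligodendrocyte and motor neuron lineage gene, at 2.79 against 0.694. These were 61 against 11 counts for Tal1 and 89 against 20 for Olig1. Both genes were under 5 CPM in both libraries, so neither could meet the 2-fold rule.

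BMP and Smad genes, the pathway known to switch on Id genes, went both ways. Of 25 measured members of a list of 27, 3 were higher and 6 lower in MyoD over GFP (7.06% and 5.2% of measured genes), with a median log2 ratio of -0.06 against -0.03 over all. In NeuroD2 over GFP 4 were higher and 5 lower (11.5% and 6.88%), with a median of -0.09 against 0.03. Bmp4, a BMP ligand, stood at 17.2 CPM in GFP, 0.845 in MyoD, 5.69 in the chimera, 0.833 in the chimera at MOI 100, 2.63 in WC, 2.62 in WCS, 4.79 in WCS at MOI 100 and 8.87 in NeuroD2. It was highest in GFP, and the part of Bmp4 or of the other genes on this list in the Id levels was not tested. Smad6, an inhibitory Smad, was 4.97-fold lower in MyoD than in GFP (3.64 to 6.94), and Bmpr1b, a BMP receptor, 6.12-fold higher (4.89 to 7.72). In NeuroD2, Nog, the BMP antagonist noggin, was 4.18-fold lower (3.25 to 5.43), the ligand gene Gdf6 4.06-fold lower (2.93 to 5.75) and the receptor gene Bmpr2 3.18-fold higher (2.96 to 3.41). Between WCS and the chimera at MOI 100, 0 of 25 met the rule in either direction (3.23% of measured genes higher and 3.32% lower). Smad1, which carries the BMP signal to the nucleus, stood at 51.7 against 31.3 CPM there, Bmp4 at 4.79 against 0.833 and Gdf6 at 1.07 against 3.16. Bmp4 was 5.76-fold higher and Gdf6 2.96-fold lower in WCS, but both stayed under 5 CPM in both libraries and could not meet the rule. In the 4-library fit 1 of 23 tested passed for WCS against the chimera, the inhibitory Smad7, which rose. Of all genes tested 5.84% rose and 5.49% fell, so this count is no more than the share over all genes.

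The genes most like each member were taken as those with the highest Pearson correlation of log2(CPM + 0.5) over the same 8 libraries, among 12817 genes. For Tcf3 they were Arhgap45 (r = 0.983), Cenpv (0.976) and H1fx (0.975), a linker histone gene. For Tcf12 they were Mfsd4a (0.983), Elk4 (0.983), an ETS factor, and Slc7a1 (0.978), a cationic amino acid transporter, and for Tcf4 they were Phc3 (0.989), a Polycomb gene, Ece2 (0.978) and Cstf3 (0.977). Id1 was most like Scn3b (0.966), a sodium channel subunit gene, Tdh (0.953) and Sh3kbp1 (0.944). For Id2 the list was Stxbp6 (0.978), Zbtb45 (0.977) and Cthrc1 (0.977), for Id3 Ednra (0.954), an endothelin receptor, Ctbp2 (0.938) and Cdc14a (0.93), and for Id4 Meis1 (0.984), a homeodomain cofactor, Faim (0.979) and Lmo1 (0.975). No other member was among the 3 genes of any member, although Tcf12 with Tcf4 and Id1 with Id3 were the closest pairs within the group.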

How the data were processed

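Values in the deposited table are raw read counts, 1 column for each of 8 libraries and 1 row for each Ensembl gene. CASAVA 1.8.2, TopHat2 2.0.8 and mm9 are named in the submitters' processing notes. How reads were counted, with which annotation and strand setting, is not given in the sources used here, and isoforms of a gene are summed. Symbols were matched by Ensembl identifier for 87.5% of rows. Counts were scaled with TMM in edgeR 4.0.16 (R 4.3.3). At these totals 3 counts, the floor for a count of 0, equal 0.073 to 0.115 CPM.

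With 1 library a group, pairs of libraries (16 in all) were compared by ratios of CPM with exact binomial intervals and by a 2-fold rule. Chimera and WCS, with and without MOI 100, entered 1 fit of edgeR's quasi-likelihood test after filterByExpr, with Benjamini-Hochberg adjustment. Alternatives were DESeq2 1.42.0 size factors and Wald test, total counts, another pseudocount, minimum level, threshold, filter and gene length, a fit without the other term, and leaving out libraries. The fit was also run on simulated counts with the same spread for all genes and no effect of the MOI label. That run therefore does not show how the fit behaves where construct differences vary with the MOI label.

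Part of the promoter results of Tcf12 is not reported here. The members and lists were chosen with earlier results of these data known. Named genes were the 7 members, the 3 list members with the largest ratio, after adding 0.5 CPM, in MyoD over GFP, NeuroD2 over GFP and WCS over the chimera at MOI 100, and the 3 named genes most correlated with each member. Ratios and intervals used scipy 1.17.1 under Python 3.11.15.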

Additional observations from a re-analysis of the deposited data

Results flagged for a closer look

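Tcf3 differed between the chimera and WCS in opposite directions at the 2 MOI labels: WCS over the chimera was 1.27 without an MOI label and 0.874 at MOI 100, with counting intervals that exclude 1 in both. With 1 library in each cell the difference between the 2 ratios was not tested. No other member turned direction beyond counting error in this contrast or between MOI 100 and no label.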

How the results depend on the processing

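Scaling with DESeq2 size factors lowered the members past the 2-fold rule in MyoD over GFP from 5 to 4 and changed no other such count. Scaling to total counts moved the median of all genes by up to 0.2 on the log2 scale (WCS at MOI 100 over GFP), raised the members higher in WCS over GFP from 3 to 5 and in WC over GFP from 2 to 3, and turned the direction of Tcf3 in 4 of 16 comparisons and of Tcf12 and Id2 in 1 each. A pseudocount of 2 CPM left 3 members higher in MyoD over GFP and 3 in WCS at MOI 100 over GFP, of 5 each, and 2 of 3 in the chimera over GFP. With a 4-fold threshold 3 members were higher in NeuroD2 over GFP, 1 each in WC, WCS at MOI 100 and the chimera over GFP, 1 was lower in MyoD over NeuroD2, and 0 remained past the rule in MyoD over GFP, the chimera at MOI 100 over GFP, the chimera over MyoD, the chimera over NeuroD2, WCS over the chimera at MOI 100 and the chimera at MOI 100 over the chimera. In WCS over GFP 2 members stayed past the 4-fold threshold. Across the 16 comparisons and both directions, 0.00643% to 5.47% of measured genes passed the 4-fold threshold.

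In the 4-library fits, leaving out the MOI or construct term gave 0 genes and 0 members in edgeR for both contrasts (1137 and 3391 genes at an unadjusted p under 0.05), against 1821 and 4108 genes with both terms, and 1649 and 3137 with DESeq2. For the MOI label 3 members passed with DESeq2 size factors in edgeR and 0 without the filter. Without any 1 of the 4 libraries no residual degree of freedom is left and only fold changes could be had: Tcf3 in WCS over the chimera turned to -0.17 without either unlabelled library and ran up to 0.34, and Id3 for the MOI label to 0.20 and 0.21 without the chimera or the chimera at MOI 100, and down to -0.36.

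With the longest transcript as the length, Id per E-protein RNA was 0.221 in GFP, 0.264 in MyoD, 0.412 in the chimera, 0.385 in the chimera at MOI 100, 0.485 in WC, 0.582 in WCS, 0.873 in WCS at MOI 100 and 1.09 in NeuroD2. Leaving out 1 member at a time gave 0.178 to 2.08 in GFP, 0.2 to 1.43 in MyoD, 0.42 to 2.57 in the chimera, 0.322 to 2.16 in the chimera at MOI 100, 0.429 to 3.83 in WC, 0.529 to 4.48 in WCS, 0.886 to 5.05 in WCS at MOI 100 and 0.942 to 7.04 in NeuroD2, the highest without Tcf3 in each, and without Tcf3 the ratio was lower in MyoD than in GFP.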

Other observations

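Genes of the Hes, Hey and Bhlhe families, many but not all of which act against bHLH activators, split within their list. Hes6 is on the list and met the 2-fold rule as higher in both MyoD and NeuroD2. It stood at 20.6 CPM in GFP, 82.8 in MyoD and 48.0 in NeuroD2. Of 10 measured, 3 were at least 2-fold higher and 2 lower in MyoD over GFP (7.06% and 5.2% of measured genes), and 4 higher and 3 lower in NeuroD2 over GFP (11.5% and 6.88%). Hey1, a Notch target, stood at 37.3 CPM in MyoD against 3.02 in GFP, 12.4-fold higher (10.2 to 15.0), and Hes5, also a Notch target, was 18-fold higher (10.6 to 32.9). Bhlhe40 was 4.92-fold lower in MyoD (4.36 to 5.58), and Bhlhe41 16-fold lower in NeuroD2 (13.6 to 19.1). Heyl had 3 counts in GFP and 880 in NeuroD2, a ratio of 421 (144 to 2047), and between the MOI 100 libraries the chimera had 36.3 CPM against 8.18 in WCS. In the 4-library fit of edgeR, Hey1, Heyl and Bhlhe41 fell and Hes5 rose in WCS.

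Among cofactors of E-proteins 11 of 12 were measured. By the 2-fold rule 3 were higher and 0 lower in MyoD over GFP (7.06% and 5.2% of measured genes), and 4 higher and 0 lower in NeuroD2 over GFP (11.5% and 6.88%). Cbfa2t3, a corepressor of the ETO family that binds E-proteins, was 21.6-fold higher in MyoD (13.7 to 36.0) and 21.3-fold higher in NeuroD2 (13.6 to 35.4). Its relative Runx1t1 was 3.29-fold higher in NeuroD2 (3.0 to 3.61), and the coactivator gene Crebbp 2.15-fold higher in MyoD (2.02 to 2.29). Lmo1 and Lmo2, LIM-only proteins that join bHLH complexes, rose in WCS in the 4-library fit. Lmo2 stood at 4.62 CPM in GFP, 4.11 in MyoD, 2.94 in the chimera, 8.4 in the chimera at MOI 100, 29.1 in WC, 36.7 in WCS, 46.0 in WCS at MOI 100 and 14.2 in NeuroD2, highest in the 3 mutant libraries, as Id4 was.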
